A study of Mus musculus with 16 samples.

Results

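The protein genes of the cytosolic ribosome were followed in mouse brown fat as 1 group of 79 genes, out of 15350 genes with a value in each of 16 RNA libraries. They were chosen by symbol alone: Rpl or Rps followed by a digit, Rplp0 to Rplp2 and Rpsa, without the Rps6k kinases and without symbols holding "-ps". The symbol rule took 86 genes, and 7 of them had a mean under 5 CPM over the 16 libraries, CPM being a gene's reads per 1000000 reads of its library, and were left out. Those 7 were Rpl37rt at 4.96 CPM, Rpl3l at 4.73, Rps10 at 3.71, Rpl39l at 2.99, Rpl23a at 2.09, Rpl24 at 1.12 and Rps27rt at 0.788. The lowest mean among the 79 that stayed was that of Rpl13a, at 12.5 CPM, so no member lay close above the minimum. The 79 members comprised 30 proteins of the small subunit, 41 of the large subunit, the 3 stalk proteins and 5 others. These 5 were the paralogs Rpl22l1, Rpl7l1, Rps27l and Rps4l, and Rps19bp1, which encodes a binding partner of Rps19 and not a ribosomal protein. Of the 80 standard ribosomal protein genes, 74 were members; 3 carry other kinds of symbol, such as Rack1, and Rpl23a, Rpl24 and Rps10 lay under the minimum.

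The libraries came from the heat-producing fat between the shoulder blades, the interscapular brown adipose tissue, taken from mice on the C57BL/6J background, and were sequenced as poly(A)-selected messenger RNA. Mice were wild type (WT) or lacked Ucp1 (KO), the mitochondrial uncoupling protein that gives brown fat its heat output. Each genotype received saline or isoproterenol, an agonist of beta-adrenergic receptors, from an implanted minipump for 3 days, with isoproterenol at 60 mg/kg/day. Each of the 4 groups held 4 libraries. Neither age nor the number of animals behind a library is given in the labels, nor that libraries within a group were from different animals. The p-values therefore cover library-to-library spread alone, and this spread may be technical.

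A ribosome has a small subunit that reads the messenger RNA and a large subunit that forms the peptide bond, each built of ribosomal RNA and 1 copy of most of its proteins, while the acidic stalk proteins sit on the large subunit and recruit elongation factors. Because the proteins are needed in matched amounts, their genes are known for coordinated expression, and their messages commonly start with a run of C and T at the very 5′ end, the terminal oligopyrimidine (TOP) tract, which couples their translation to mTOR signalling. Growing and dividing cells are known to make more ribosomes than resting cells, and brown fat is known to expand under sustained adrenergic stimulation.

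The sequences below are shown because they belong to the members on which the results turn, and because they show the tract where the RefSeq start has one. Each runs 5′ to 3′ on the gene's strand from 60 bases before to 20 bases after a RefSeq start in GRCm38.p6. Capitals mark the tract, taken as a C within 5 bases of the start followed by at least 4 bases that are C or T. Rpl13a, Rpl22l1 and Rpl15 were higher after isoproterenol in both genotypes; Rps15a and Rps6 were called higher in KO and not in WT; Rplp2 was called lower in KO; Rpl10 and Rplp0 were called higher in KO and have no such tract at this start.
Rpl13a, chr7:45128726-45128805, minus strand: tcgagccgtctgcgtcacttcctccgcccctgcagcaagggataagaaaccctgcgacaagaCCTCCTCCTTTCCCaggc
Rpl22l1, chr3:28805448-28805527, plus strand: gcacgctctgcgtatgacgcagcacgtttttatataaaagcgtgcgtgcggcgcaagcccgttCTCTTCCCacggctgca
Rpl15, chr14:18270967-18271046, minus strand: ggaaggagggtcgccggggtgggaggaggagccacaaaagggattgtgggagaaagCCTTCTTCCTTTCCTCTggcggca
Rps15a, chr7:118116128-118116207, minus strand: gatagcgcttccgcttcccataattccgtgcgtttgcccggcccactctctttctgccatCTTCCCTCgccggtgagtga
Rps6, chr4:86857348-86857427, minus strand: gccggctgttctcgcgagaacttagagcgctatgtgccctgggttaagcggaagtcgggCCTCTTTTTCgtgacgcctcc
Rplp2, chr7:141447591-141447670, plus strand: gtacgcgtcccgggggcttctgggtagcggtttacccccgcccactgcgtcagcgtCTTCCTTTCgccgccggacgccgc
Rpl10, chrX:74270756-74270835, plus strand: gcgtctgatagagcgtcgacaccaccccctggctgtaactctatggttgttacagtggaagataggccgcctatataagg
Rplp0, chr5:115559407-115559486, plus strand: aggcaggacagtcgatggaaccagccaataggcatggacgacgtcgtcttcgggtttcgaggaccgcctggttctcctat

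Across the series, depth ran from 9004515 to 20986735 reads per library over the listed genes. Ucp1, which checks the genotype labels, ranged over 2298 to 3449 CPM with saline and 8905 to 18458 CPM with isoproterenol in WT, and over 410 to 1156 and 19.0 to 2129 CPM in KO. Every KO library lay below every WT library of its treatment, and the values do not show which exons the remaining reads cover. The KO isoproterenol libraries differed widely among themselves. The summed level of 7 brown adipocyte markers, Ucp1 included, was 119, 1679, 3404 and 8043 CPM in KO isoproterenol replicates 1 to 4, against 5729 to 6102 in KO saline. The summed level of 10 macrophage markers was 8186, 2213, 5045 and 1072 CPM in the same replicates, against 353 to 647 in KO saline, and all 10 markers were called higher; no marker of either list was at 0 reads throughout. In such bulk tissue, fewer cells of a type and less RNA per cell cannot be told apart.

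Ribosomal protein messages took the largest share of reads in KO mice given isoproterenol. In WT saline replicates 1 to 4 the 79 members held 1.61, 1.34, 1.14 and 1.14% of all reads over listed genes. In WT isoproterenol they held 1.28, 1.28, 0.930 and 0.895%. In KO saline they held 1.26, 1.11, 1.30 and 1.33%, and in KO isoproterenol 1.94, 2.22, 2.09 and 1.35%. Every KO isoproterenol library lay above every KO saline and WT isoproterenol library, replicate 4 by the least, while both WT groups and KO saline overlapped. The group means were 1.31 ± 0.223% (SD, n = 4) in WT saline, 1.097 ± 0.213% in WT isoproterenol, 1.25 ± 0.0984% in KO saline and 1.90 ± 0.386% in KO isoproterenol. In both WT groups, replicates 3 and 4 lay below replicates 1 and 2. The summed level of 10 skeletal muscle markers was 279, 6.50, 1245 and 7907 CPM in WT saline and 175, 6.19, 978 and 2571 CPM in WT isoproterenol, highest in these same replicates 3 and 4, and its part in the member levels was not tested. It was 6.09 to 698 CPM in the KO libraries. Same-numbered WT libraries deviated together over all genes, as did some WT libraries of different number. Within each of the 4 same-numbered pairs the members' share was lower with isoproterenol than with saline.

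The members moved largely together within a library. After each gene's log2 CPM was centred on its mean over the 16 libraries, the median over the members was 0.18, 0.02, -0.20 and -0.22 in WT saline and 0.00, -0.04, -0.42 and -0.39 in WT isoproterenol. It was -0.10, -0.24, -0.05 and 0.05 in KO saline and 0.34, 0.40, 0.58 and 0.11 in KO isoproterenol. Small and large subunit genes followed each other: in KO isoproterenol the small subunit medians were 0.35, 0.43, 0.62 and 0.07 and the large subunit medians 0.35, 0.37, 0.58 and 0.12. Replicate 4 of KO isoproterenol, with the lowest members, also had the lowest macrophage marker sum and the highest brown adipocyte sum of its group; the part of cell composition in the member levels was not tested.

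**Figure D1:**
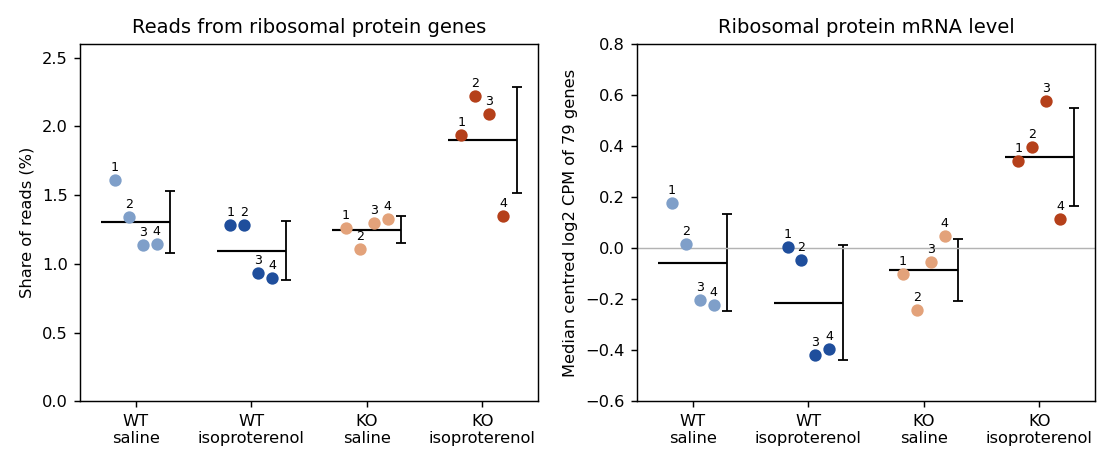
Share of reads from the 79 ribosomal protein genes (left, %) and median centred log2 CPM of the same genes (right) in each library, with replicate numbers beside the points, a line at the group mean and a bar of 1 SD (n = 4). KO isoproterenol libraries lie at 1.35 to 2.22% of reads, and the other 12 libraries at 0.895 to 1.61%.

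Without isoproterenol, loss of Ucp1 was not accompanied by a called change in any ribosomal protein gene. KO was compared with WT under saline in limma, with calls made below a Benjamini-Hochberg adjusted p of 0.05 over 15350 genes, and 0 of the 79 members were called higher and 0 lower. Of all genes 0.0717% were called higher and 0.0261% lower, 0.0977% in either direction. A single member had an unadjusted p under 0.05. The member differences ran from -0.15 to 0.46 on the log2 scale with a median of -0.01, and no member had groups that did not overlap, against 3.75% of all genes for higher and 3.44% for lower. The 0.46 belonged to Rpl7l1, a ribosomal-protein-like gene that was at 77.7, 76.5, 62.9 and 74.8 CPM in WT saline and 120.2, 69.2, 129 and 93.7 CPM in KO saline; its KO replicate 2 lay inside the WT range, and its adjusted p was 0.602.

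In KO mice, isoproterenol was followed by higher levels of most ribosomal protein genes of both subunits. Of the 79 members, 46 rose and 2 fell, while 23.8% of all genes rose and 24.8% fell, 48.6% in either direction. The median log2 difference between isoproterenol and saline was 0.46 over the members and -0.00 over all genes, and 73 members had a positive difference. Of the small subunit genes, 19 of 30 rose and none fell, with a median of 0.50; of the large subunit genes, 23 of 41 rose and 1 fell, with a median of 0.46. For 40 members every KO isoproterenol library lay above every KO saline library, against 18.1% of all genes; for 1 member, Rplp2, every library lay below, against 19.3%. Leaving out KO saline replicate 2 reduced the members that rose to 31, leaving out KO isoproterenol replicate 3 reduced them to 30, and leaving out KO isoproterenol replicate 4, the library with the lowest macrophage sum, raised them to 56. The calls for 30 of the 46 members held when any 1 of the 8 libraries was left out. With the 2 KO groups fitted alone, 28 members rose and 0 fell, against 16.3% and 17.5% of all genes in that fit.

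Among the small subunit genes, the largest rise in KO belonged to Rps15a. It was at 127, 113, 133 and 138 CPM in KO saline and 257, 233, 282 and 168 CPM in KO isoproterenol, a log2 difference of 0.86 ± 0.16 (SE, adjusted p = 0.000507). The groups did not overlap, and replicate 4 was the lowest treated library. Rps6, the protein phosphorylated by the S6 kinases downstream of mTOR, was at 23.1, 19.6, 29.1 and 24.3 CPM in KO saline and 33.0, 42.5, 40.9 and 30.7 CPM in KO isoproterenol. All 4 treated libraries were above the saline ones, and the difference was 0.62 ± 0.16 (adjusted p = 0.00485). Rps18 rose by 0.64, Rps23, which lies at the decoding centre, by 0.65, and Rps3a1 by 0.57, while the smallest of the 19 rises were Rps7 at 0.38 and Rps9 at 0.35. Of these, Rps23 and Rps7 lost the call without KO saline replicate 2 or KO isoproterenol replicate 3, and Rps7 also without KO isoproterenol replicate 2, with adjusted p up to 0.0612 for Rps23 and 0.0775 for Rps7; Rps9 kept the call in 2 of the 8 fits that left out a library, with adjusted p up to 0.122.

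Among the large subunit genes, Rpl12 and Rpl10 had the highest log2 differences in KO after Rpl13a. Rpl10, which joins the large subunit late in its assembly, was at 117, 96.6, 113 and 106 CPM in KO saline and 213, 211, 216 and 133 CPM in KO isoproterenol. Replicates 1 to 3 lay close together and replicate 4 far below them, still above all saline libraries. The difference was 0.81 ± 0.15 (adjusted p = 0.000429). Rpl12, part of the stalk base, was at 109, 95.1, 115 and 119 CPM in KO saline and 221, 199.95, 239.99 and 149 CPM in KO isoproterenol, again without overlap, and rose by 0.87 ± 0.17 (adjusted p = 0.000937). Rpl38 rose by 0.52, Rpl41 by 0.54, Rpl18 by 0.49, Rpl10a by 0.50, Rpl37a by 0.47, Rpl13 by 0.46 and Rpl19 by 0.37. Of these 7, Rpl10a, Rpl37a and Rpl13 lost the call without KO saline replicate 2 or KO isoproterenol replicate 3, and Rpl10a also without KO saline replicate 4, with adjusted p up to 0.0825, 0.0752 and 0.0693.

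**Figure D2:**
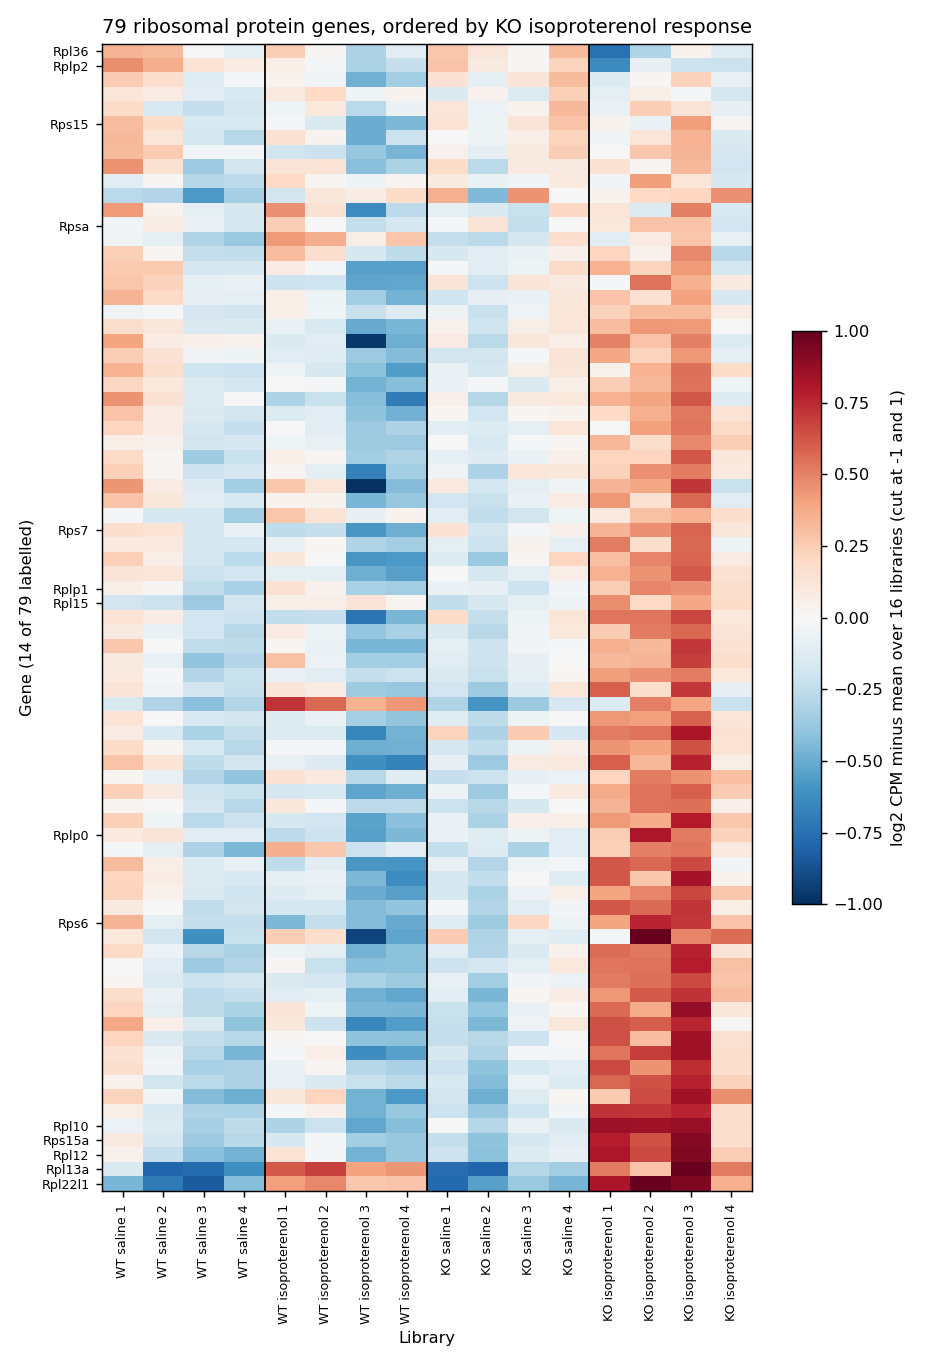
Log2 CPM of each of the 79 ribosomal protein genes minus its mean over the 16 libraries, with genes ordered by the KO isoproterenol difference and libraries in columns by group. Most rows are red in KO isoproterenol replicates 1 to 3 and paler in replicate 4, and the top rows, among them Rpl36 and Rplp2, are not.

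Against this general rise, 2 members fell in KO after isoproterenol. Rplp2, a stalk protein, was at 445, 389, 367 and 426 CPM in KO saline and 235, 346, 315 and 314 CPM in KO isoproterenol. The groups did not overlap, replicate 1 was the lowest, and the difference was -0.44 ± 0.16 (adjusted p = 0.0318). Rpl36, a small protein of the large subunit, was at 200, 181, 168 and 206 CPM in KO saline and 98.6, 135, 170 and 153 CPM in KO isoproterenol; replicate 3 overlapped with saline, and the difference was -0.46 ± 0.17 (adjusted p = 0.0366). Neither call was firm. The Rplp2 call was lost without KO saline replicate 1, KO saline replicate 4 or KO isoproterenol replicate 1, with adjusted p up to 0.0849, and the Rpl36 call without KO saline replicates 1, 2 or 4 or KO isoproterenol replicates 1 or 2, with adjusted p up to 0.117. With scaling by library totals, which moves the median of all genes from -0.00 to 0.18 in this comparison, both differences were smaller and no member was called lower.

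The 3 stalk proteins, which form 1 complex on the ribosome, did not share a direction in KO. Rplp0, the stalk's anchor, was at 627, 604, 636 and 612 CPM in KO saline and 780, 1149, 941 and 772 CPM in KO isoproterenol. No library overlapped, and it rose by 0.54 ± 0.17 (adjusted p = 0.0148). Rplp1 was at 475, 472, 431 and 489 CPM in KO saline and 592, 698, 684 and 563 CPM in KO isoproterenol, also without overlap, and rose by 0.44 ± 0.16 (adjusted p = 0.0361). Rplp2, its partner in the stalk dimers, was called lower, as given above. The Rplp1 call held in 2 of the 8 fits that left out a library, those without KO isoproterenol replicate 1 or 4, with adjusted p up to 0.0884.

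In WT mice the same infusion was followed by few called changes. Of the 79 members 5 rose and 3 fell, while 7.6% of all genes rose and 8.98% fell, 16.6% in either direction, so the members' counts were near or below the background. The median log2 difference was -0.15 over the members and -0.02 over all genes, with 58 members negative. For 6 members every treated library lay above every saline library, against 16.3% of all genes, and for 10 every one lay below, against 16.6%. Among the members that rose were Rpl13a, Rpl22l1, Rps4l and Rpl15, and among those that fell were Rps27 and Rps7. Leaving out any 1 of the 8 WT libraries gave 3 to 5 called members in place of 8: 3 without replicate 4 of either WT group, 4 without WT isoproterenol replicate 3 or either of replicates 1 and 2 of WT saline, and 5 without the remaining 3. Rpl13a, Rpl22l1 and Rps4l kept their calls in every such fit. With WT libraries paired by number, 4 rose and 1 fell, against 5.41% and 6.74% of all genes in that fit, and Rpl15 and Rps27 were among those that lost the call. With the 2 WT groups fitted alone, 6 members rose and 9 fell, against 16.3% and 15.8% of all genes in that fit.

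The 3 members called lower in WT were all of the small subunit. The lowest WT difference of any member was nevertheless that of the large subunit gene Rpl5, at -0.57, which missed the threshold (adjusted p = 0.0512). Rps27 was at 125, 102, 84.0 and 91.6 CPM in WT saline and 74.5, 78.8, 68.5 and 56.8 CPM in WT isoproterenol, a difference of -0.53 ± 0.17 (adjusted p = 0.0448). Replicates 3 and 4 of saline came close to the highest treated libraries without overlap. Rps7 differed by -0.40 ± 0.13 (adjusted p = 0.0442), also without overlap. The Rps27 call was lost whichever WT library was left out other than WT saline replicate 3, and the Rps7 call without WT saline replicates 1, 2 or 4 or WT isoproterenol replicates 3 or 4, with adjusted p up to 0.137 for Rps27 and 0.127 for Rps7. With scaling by library totals, which moves the median of all genes to -0.13, none of the 3 members that fell was called.

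A handful of members stood out from the rest by rising in WT, and 4 of these 5 were also called higher in KO. Rpl13a, a large subunit protein also known for silencing inflammatory messages in macrophages, was at 10.4, 6.64, 6.75 and 7.51 CPM in WT saline and 17.5, 18.4, 15.1 and 15.6 CPM in WT isoproterenol. In KO it was at 6.76, 6.62, 9.40 and 9.02 CPM with saline and 16.4, 14.0, 23.5 and 16.5 CPM with isoproterenol. Treated and saline libraries did not overlap in either genotype. The differences were 1.11 ± 0.19 in WT (adjusted p = 0.00142) and 1.14 ± 0.19 in KO (adjusted p = 0.000229), and they differed from each other by 0.03 ± 0.27 (adjusted p = 0.952). Both calls held in every fit that left out a library.

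Rpl22l1, the paralog of Rpl22, had the highest rise of all members in KO. It was at 12.4, 10.4, 9.54 and 12.7 CPM in WT saline and 22.6, 23.8, 20.5 and 20.7 CPM in WT isoproterenol. In KO it was at 9.95, 11.7, 13.2 and 12.3 CPM with saline and 29.99, 34.6, 32.4 and 21.7 CPM with isoproterenol. Treated libraries were above saline ones in both genotypes, and KO replicate 4 lay inside the treated WT range. The differences were 0.97 ± 0.15 in WT (adjusted p = 0.000807) and 1.32 ± 0.15 in KO (adjusted p = 1.08e-05). Rpl22 itself, which is known to repress Rpl22l1, was at 168, 157, 138 and 137 CPM in WT saline, 132, 130.5, 109.9 and 105 in WT isoproterenol, 125, 125, 141 and 155 in KO saline and 185, 165, 191 and 132 in KO isoproterenol. It was lower in all 4 treated than in all saline WT libraries without passing the test (-0.33 ± 0.14, adjusted p = 0.115), and its KO groups overlapped (0.30 ± 0.14, adjusted p = 0.0873).

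Rps4l, which GENCODE lists as a transcribed processed pseudogene close in sequence to Rps4x, was at 27.6, 25.0, 23.0 and 25.1 CPM in WT saline and 50.9, 45.8, 39.2 and 41.6 CPM in WT isoproterenol. It rose there by 0.82 ± 0.16 (adjusted p = 0.0032) without overlap. In KO it was at 25.0, 20.4, 23.9 and 27.4 CPM with saline and 27.996, 43.7, 40.5 and 26.5 CPM with isoproterenol; replicate 4 overlapped with saline, and the rise of 0.49 ± 0.16 (adjusted p = 0.0185) lost its call without KO saline replicate 2, KO isoproterenol replicate 2 or KO isoproterenol replicate 3 (adjusted p up to 0.063). Reads shared with near-identical copies make this gene and others with processed copies uncertain, since the counting rule is not given in the sources used here. Rpl15 rose by 0.31 ± 0.09 in WT (adjusted p = 0.035) and by 0.45 ± 0.09 in KO (adjusted p = 0.00114); the WT call was lost whichever WT library was left out (adjusted p up to 0.109), and the KO call held in every such fit.

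**Figure D3:**
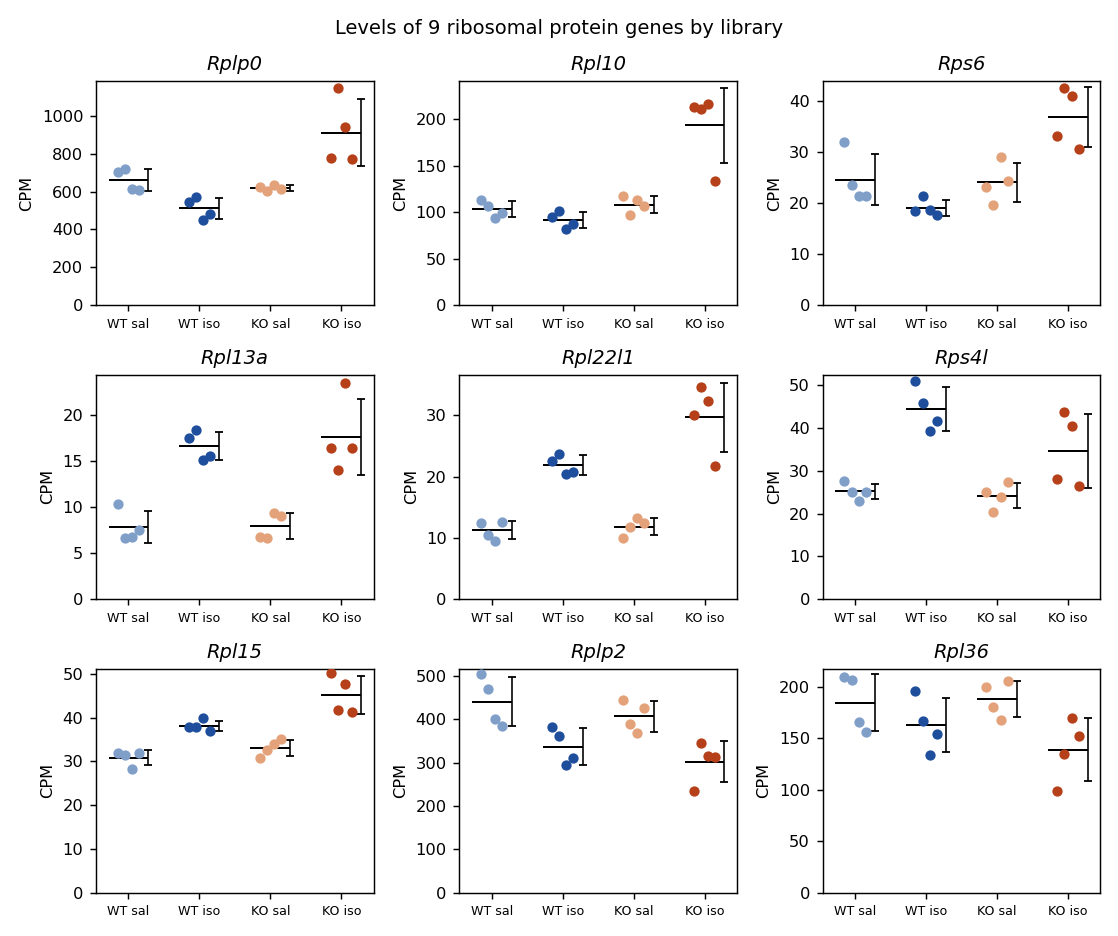
CPM of 9 ribosomal protein genes in each library, with a line at the mean and a bar of 1 SD of each group (n = 4). Rplp0, Rpl10 and Rps6 are highest in KO isoproterenol, Rpl13a and Rpl22l1 are higher after isoproterenol in both genotypes, and Rplp2 and Rpl36 have their lowest means in KO isoproterenol.

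Under isoproterenol, KO libraries held more ribosomal protein message than WT libraries for most members. This comparison shares the KO isoproterenol libraries with the response in KO and the WT isoproterenol libraries with the response in WT, so it is no independent repeat of either. Of the 79 members 59 were called higher in KO and none lower, against 21.6% and 23.1% of all genes, 44.6% in either direction. The median log2 difference was 0.58 over the members and 0.02 over all genes. Of the small subunit genes 24 of 30 were higher, and of the large subunit genes 32 of 41. For 46 members the groups did not overlap with KO above, against 17.2% of all genes, and for none with KO below, against 18.3%. Leaving out 1 library at a time gave 44 to 61 called members, and the 2 isoproterenol groups fitted alone gave 38, all higher in KO, against 14.2% of all genes higher in that fit.

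Rpl10 differed most between the genotypes under isoproterenol, by 1.06 ± 0.15 (adjusted p = 8.9e-05), with WT libraries at 94.8, 102, 82.2 and 87.5 CPM and KO libraries at 133 to 216. Rps6 followed with 0.94 ± 0.16 (adjusted p = 0.000312), from 18.4, 21.3, 18.6 and 17.7 CPM in WT to between 30.7 and 42.5 in KO. In neither gene did the groups overlap. Rpl13 was higher in KO by 0.88, Rpl10a by 0.85, Rps15a by 0.85 and Rps3a1 by 0.84. The smallest called differences were Rpl15 at 0.24, Rpl7a at 0.32, Rpl38 at 0.41 and Rpl22l1 at 0.42. All 4 of these calls were lost without WT isoproterenol replicate 3, and those for Rpl15, Rpl7a and Rpl22l1 held in only 2 of the 8 fits that left out a library, with adjusted p up to 0.125 for Rpl15, 0.112 for Rpl7a, 0.0504 for Rpl38 and 0.103 for Rpl22l1.

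The difference of the responses, that is the isoproterenol difference in KO minus that in WT, was called for 35 members, all in the direction of a higher response in KO, against 10.9% of all genes in that direction and 13.8% in the other, 24.7% together. Its median was 0.62 over the members and 0.04 over all genes. Of these 35 members, 30 had also risen in KO; the other 5 were Rpl22, Rpl5, Rpl9, Rps14 and Rps27, whose WT differences were negative and whose KO differences were positive, 9 of these 10 values without a call. Leaving out WT saline replicate 1, WT isoproterenol replicate 3 or WT isoproterenol replicate 4 reduced the 35 to 19, and leaving out KO saline replicate 2 or KO isoproterenol replicate 3 reduced them to 21. Calls for 19 of the 35 members held in each of the 16 fits that left out a library.

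Rps3a1 had the highest difference of responses, 0.99 ± 0.25 (adjusted p = 0.011). It was at 301, 252, 220 and 229 CPM in WT saline, 204, 224, 162 and 161 in WT isoproterenol, 230.1, 197, 235 and 237 in KO saline and 373, 360.0, 384 and 238 in KO isoproterenol. WT values overlapped between treatments, and in KO every treated library was above every saline one, replicate 4 by a narrow margin. Rpl10 followed with 0.99 ± 0.21 (adjusted p = 0.00531), Rps6 with 0.97 ± 0.22 (adjusted p = 0.0079), Rps23 with 0.96 ± 0.30 (adjusted p = 0.0308) and Rplp0 with 0.90 ± 0.23 (adjusted p = 0.0142). Rplp0 was at 703, 720, 612 and 607 CPM in WT saline and 548, 571, 452 and 481 in WT isoproterenol, lower in all treated libraries (-0.37 ± 0.17, adjusted p = 0.149), the opposite order to KO. The calls for Rps3a1, Rpl10, Rps6 and Rplp0 held in each of the 16 fits that left out a library. That for Rps23 held in 8 of the 16, with adjusted p up to 0.0679.

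**Figure D4:**
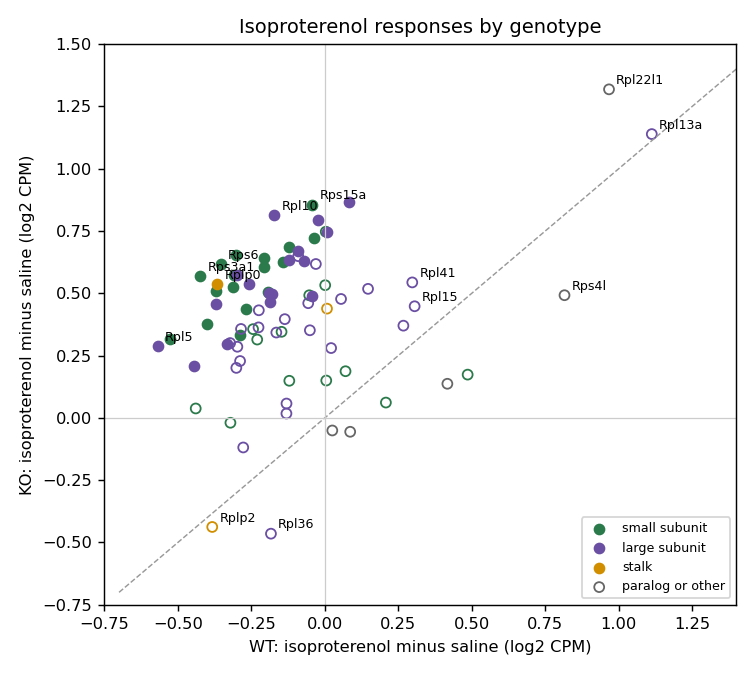
Log2 difference between isoproterenol and saline in WT (horizontal) and in KO (vertical) for each of the 79 members, coloured by subunit, filled where the difference of responses was called and open where it was not, with the dashed line marking equal responses. Most points lie above the line with KO values near the median of 0.46, while Rpl22l1 and Rpl13a lie at the upper right and Rplp2 and Rpl36 at the lower left.

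Some members are known for roles outside the ribosome. Rpl5 and Rpl11 bind Mdm2 together with 5S RNA when ribosome assembly fails, and neither was called after isoproterenol in either genotype. Rpl5 was at 33.0, 26.4, 25.9 and 25.8 CPM in WT saline, 22.6, 23.1, 12.9 and 17.9 in WT isoproterenol, 26.6, 20.8, 27.2 and 26.2 in KO saline and 35.3, 30.5, 35.6 and 22.8 in KO isoproterenol. Treated WT libraries were lower than all saline ones, although the difference of -0.57 ± 0.19 missed the threshold (adjusted p = 0.0512), and its difference of responses was 0.86 ± 0.27 (adjusted p = 0.0307), a call lost without WT saline replicate 1, WT isoproterenol replicates 3 or 4, KO saline replicate 2 or KO isoproterenol replicate 3 (adjusted p up to 0.0678). Rpl11 differed by -0.13 ± 0.16 in WT and 0.02 ± 0.16 in KO, and its difference of responses was 0.15 ± 0.23 (adjusted p = 0.667). Rps19, the gene most often mutated in Diamond-Blackfan anaemia, differed by -0.23 ± 0.16 in WT and 0.31 ± 0.16 in KO (adjusted p = 0.347 and 0.108), and Rpsa, also a laminin receptor, by 0.00 ± 0.16 and 0.15 ± 0.16 (adjusted p = 0.989 and 0.459).

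Several members serve as reference genes for quantitative PCR, and their levels were not steady across these groups. Mean levels of Rplp0 were 660.4 ± 59.5 CPM (SD, n = 4) in WT saline, 513 ± 55.8 in WT isoproterenol, 619.8 ± 14.1 in KO saline and 911 ± 177 in KO isoproterenol. Rps18 was at 180.0 ± 25.9, 156 ± 25.0, 177 ± 27.4 and 275 ± 35.2 CPM in the same order, and was called higher in KO after isoproterenol (0.64 ± 0.16, adjusted p = 0.00411). Rpl32 rose in KO by 0.65 ± 0.19 (adjusted p = 0.0103) and Rpl19 by 0.37 ± 0.11 (adjusted p = 0.0103), with WT differences of -0.09 and 0.27 that were not called. Rpl13a, given above, rose in both genotypes, by 1.11 and 1.14 on the log2 scale. Of 13 other genes often used as references, such as Actb and Gapdh, 5 rose and 3 fell in KO and 2 rose and 1 fell in WT. The shares of all genes were 23.8% and 24.8% in KO and 7.6% and 8.98% in WT.

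No call in any of the 5 comparisons was made for 13 members, namely Rpl11, Rpl27a, Rpl28, Rpl31, Rpl35a, Rpl7l1, Rps15, Rps19bp1, Rps2, Rps21, Rps27l, Rps29 and Rpsa. Rps15 was at 433, 397, 315 and 315 CPM in WT saline, 348, 317, 248 and 257 in WT isoproterenol, 383, 338, 382 and 425 in KO saline and 359, 334, 467 and 356 in KO isoproterenol. Its treated KO libraries overlapped with saline, and the difference was -0.02 ± 0.17 (adjusted p = 0.934). Rps27l, a paralog of Rps27 that p53 is known to induce, differed by 0.09 ± 0.11 in WT and -0.06 ± 0.11 in KO, and Rps19bp1 by 0.03 ± 0.13 and -0.05 ± 0.13. These misses do not show that the levels were equal.

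Per kilobase of transcript, the mean levels of members ranged widely around a median of 166 CPM per kb. The highest were Rplp1 at 1014, Rpl41, the smallest ribosomal protein, at 809 and Rps15 at 661 CPM per kb. The lowest were Rpl13a at 11.9, Rpl5 at 12.6 and Rpl31 at 13.5 CPM per kb. Each level was divided by the median length of a gene's annotated transcripts, such as 2045 bases for Rpl5 and 437 for Rpl41. The range and order of the members depend on that choice of length. The products of these genes are needed in comparable amounts per ribosome, and reads lost or gained through near-identical processed copies were not separated. The spread between libraries of a group was also uneven. The median SD of members' log2 CPM was 0.196 in WT saline, 0.218 in WT isoproterenol, 0.139 in KO saline and 0.236 in KO isoproterenol, beside 0.162, 0.193, 0.199 and 0.368 over the 11195 genes with a mean of at least 5 CPM. In KO isoproterenol the members thus varied less between libraries than the median gene did, and in the WT groups more.

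The members also shared features of position and start sequence that their symbols did not select. Chromosome 7 carried 14 of the 79 members (17.7%), beside 7.88% of all genes measured. RefSeq starts in GRCm38.p6 were matched for 59 members. The pyrimidine tract defined with the sequences above was found at a start of 28 of the 59 (47.5%), beside 24.0% of the 11244 measured genes with a start and 21.2% of all 27025 genes of the table. The motif CCGGAAG, the core bound by ETS factors such as GABPA, was found on either strand of the 250 bases upstream in 17 of the 59 (28.8%), beside 14.7% of measured genes and 7.83% of all genes of the table. Both the tract and this motif were matched in 11 members. All 3 of the WT-called rises with a matched start, the Rpl13a, Rpl22l1 and Rpl15 printed above, had the tract. A link between tract and call was not tested, and the WT call of Rpl15 was lost whichever WT library was left out. After isoproterenol, the 28 members with the tract had a median log2 difference of 0.47 in KO, as had the 31 without it, and of -0.06 against -0.19 in WT. Their median difference between KO and WT under isoproterenol was 0.50 against 0.72, and that of the responses 0.52 against 0.65, none of it tested. A match is a description of these letters and not a measured site.

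The machinery that builds and serves the ribosome was compared through lists chosen for their function. Of 52 ribosome biogenesis factors, 19 rose and 3 fell in KO after isoproterenol (median 0.32), while 2 rose and 1 fell in WT (median 0.07). Over all genes, 23.8% rose and 24.8% fell in KO, and 7.6% rose and 8.98% fell in WT. Read against these shares, the factors that rose in KO were more than the background and those that fell fewer, with no test of either. Npm1, a nucleolar chaperone, rose by 1.05 ± 0.13 in KO (adjusted p = 2.6e-05), and Nop10, a component of pseudouridylation complexes, fell by 1.60 ± 0.16 on the log2 scale (adjusted p = 2.74e-06). Of 14 genes of RNA polymerase I and its factors, 2 rose and 0 fell in KO (median 0.09), both counts below the background, and Polr1c was among those that rose. Of 23 elongation factors and other messages with TOP tracts, 11 rose and 1 fell in KO (median 0.32), and 0 rose and 3 fell in WT (median -0.16). The list holds Rack1, a small subunit protein outside the symbol rule, which rose in KO by 0.86 ± 0.15 (adjusted p = 0.000312). Of 35 initiation factors, 11 rose and 4 fell in KO (median 0.07), the rises near the background share and the falls below it.

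Among 20 regulators of ribosomal protein synthesis, 3 rose and 6 fell in KO, near the background, and the 2 with the greatest differences were both of the Myc family. Myc, a transcription factor known to drive ribosome biogenesis, rose by 1.68 ± 0.33 (adjusted p = 0.00076), and Mycn fell by 2.74 ± 0.49 on the log2 scale (adjusted p = 0.000414). Mitochondrial ribosomal proteins moved the other way from the cytosolic ones. Of 77 measured, 0 rose and 60 fell in KO after isoproterenol (median -0.77), while 12 rose and 0 fell in WT (median 0.29). The difference of responses was called for 69, all lower in KO (median -1.16). Of all genes, 23.8% rose and 24.8% fell in KO, and 7.6% rose and 8.98% fell in WT. For the difference of responses, 10.9% of all genes were called higher in KO and 13.8% lower.

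**Figure D5:**
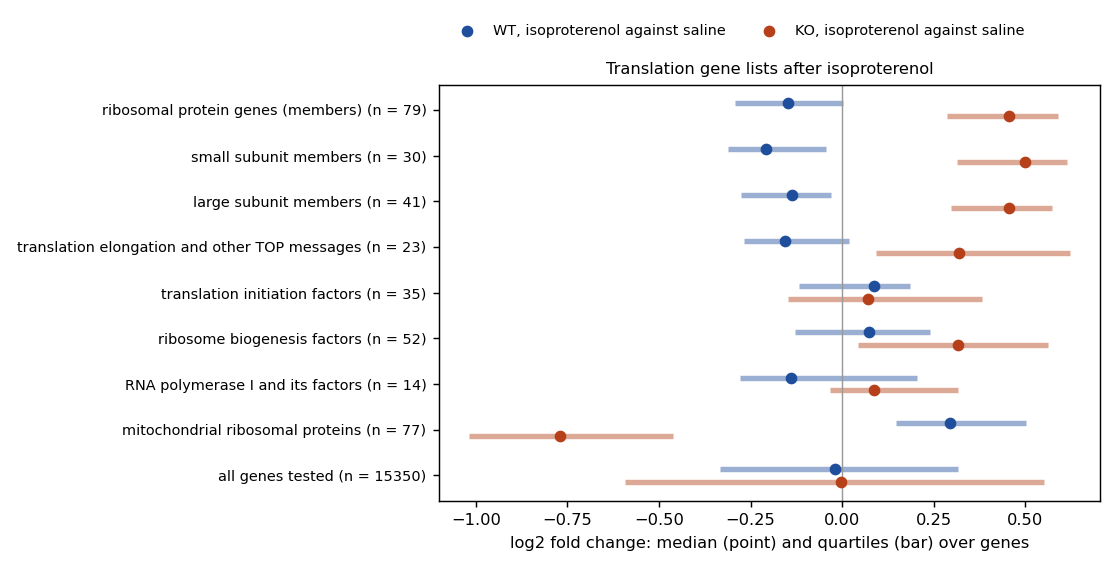
Median (point) and quartiles (bar) of the log2 difference between isoproterenol and saline over the genes of each list, in WT and KO. Ribosomal protein genes sit at -0.15 in WT and 0.46 in KO, mitochondrial ribosomal protein genes at 0.29 and -0.77, and all genes tested near 0 in both.

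Markers of other cells also differed between the groups, some in the direction of the members and some not. In KO, where most members rose, all 10 macrophage markers and all 7 measured neutrophil markers rose after isoproterenol, with medians of 2.54 and 5.38 on the log2 scale; 3 of 5 adipocyte and 3 of 7 brown adipocyte markers fell, and of 9 lymphocyte markers 0 rose and 3 fell. In WT, where most members had negative differences, 3 of the 10 macrophage and 4 of the 7 neutrophil markers rose, with medians of 1.03 and 1.93. None of 10 skeletal muscle markers was called in either genotype, and of 6 endothelial markers 3 rose in KO and 2 in WT. Beside these counts, 23.8% of all genes rose and 24.8% fell in KO, and 7.6% rose and 8.98% fell in WT. Neutrophil sums were 6.49 to 8.74 CPM in KO libraries without isoproterenol and 140.1 to 530 CPM in those with it. Within KO isoproterenol the order of the libraries by macrophage sum was replicate 1, 3, 2 and 4, and by the members' median 3, 2, 1 and 4. Replicate 1, with the highest macrophage sum and a brown adipocyte sum of 119 CPM, did not have the highest member level. The part of these cells in the ribosomal protein levels was not tested.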

How the data were processed

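The deposited files hold 1 log2 value per gene and library. Per the submitters' processing notes, the authors used STAR, limma and the mouse assembly mm39; their versions and the read counter, strand setting, annotation and gene filter were not given in the sources used here. Every deposited log2 value was that of a whole read count plus 0.5, within 1e-06, per 1000000 reads of a scaled library size. That size was 0.854 to 1.25 times the sum of reads and matched trimmed mean scaling. Reads, depth and shares of reads were recovered without the 0.5, while the CPM values given here still hold it. A fold on this scale understates the change of genes with few reads, and counting error is smallest in the deepest libraries.

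The 79 members and all gene lists were chosen with earlier results of these data known. Replicate numbers came from the sample titles, since 3 KO saline samples carry another number in their file headers. Groups came from the titles and treatment labels, although the treatment protocol text of the saline samples describes isoproterenol. Deviations from the group means correlated between same-numbered libraries of the 2 WT groups in 4 of 4 pairs (0.21 to 0.54), so these were also fitted as pairs, an alternative chosen after seeing the data. In no other pair of groups did all 4 pairs exceed 0.1. In WT, saline and isoproterenol replicates 1 and 2 also correlated across numbers (0.371 and 0.176), as did replicates 3 and 4 (0.204 and 0.345). Correlations between these 2 sets of WT libraries ran from -0.532 to -0.0925. The numbers were therefore not shown to mark true pairs. Deposited log2 values were tested in limma 3.58.1 (R 4.3.3, statmod 1.5.0) with 4 group means over 16 libraries, 12 residual degrees of freedom, trend and robust moderation, and Benjamini-Hochberg adjustment over 15350 genes at a threshold of 0.05, in 5 contrasts. The fit was tested on simulated data. SE is the moderated standard error. Descriptions used Python 3.11.15, pandas 2.3.3 and numpy 2.4.6, and plots used matplotlib 3.10.9. Symbols and transcript lengths came from GENCODE M21, and start sequences from RefSeq (GRCm38.p6).

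Members were named where they match the symbol rule without being standard ribosomal proteins, where they had the 5 highest or lowest called differences of a comparison, as stalk or reference genes, for known roles (Rps6, Rpl5, Rpl11, Rps19, Rpsa), or for the 3 highest or lowest levels per kb. The values of a few genes taken by this rule are not reported here. Genes outside the members were named as the 2 largest called changes of a list. Members without any call and genes under the member minimum are named as complete sets, chosen after their values were seen. Alternatives were fits of the compared groups alone, 3 other scalings, voom weights, log2(CPM + 1), a minimum of 1 CPM for genes or for members, plain moderation, a replicate block, standard proteins only, and each library left out. A planned count test was not run, since the values are on a log2 scale.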

Additional observations from a re-analysis of the deposited data

Results flagged for a closer look

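In 172 sets of 4 libraries, those of each named member and of the members' share of reads and median level in the 4 groups, the highest and lowest library was compared with the others, and 10 stood apart by a gap to the nearest library that was over Dixon's 95% critical share of the group's range. Chance marks about 1 group in 20 this way. KO saline replicate 2 accounted for 6 of the 10, in each case as the lowest of its group. It had Rpl5 at 20.8 CPM (the others 26.2 to 27.2), Rpl9 at 173 (213 to 218), Rps14 at 256 (296 to 299), Rps27 at 75.7 (95.4 to 99.1), Rps3a1 at 197 (230.1 to 237) and Rps9 at 325 (359 to 366). KO isoproterenol replicate 4 was the lowest for Rpl10, at 133 CPM with the others at 211 to 216, and for Rps3a1, at 238 with the others at 360.0 to 384. In WT saline, replicate 3 was the lowest for Rpl15 at 28.2 CPM (31.4 to 32.0) and replicate 1 the highest for Rpl5 at 33.0 CPM (25.8 to 26.4).

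The isoproterenol response differed between the genotypes for 18 named members, each higher in KO by the interaction contrast in limma, with adjusted p from 0.00531 to 0.0485. Of all genes, 10.9% were called higher in KO by this contrast and 13.8% lower. Several of the 18 were named because they were extreme in this same contrast, so the count of 18 adds no support of its own. The differences of responses on the log2 scale were 0.99 for Rpl10 and for Rps3a1, 0.97 for Rps6, 0.96 for Rps23, 0.90 for Rplp0 and for Rps15a, 0.86 for Rpl5 and 0.85 for Rps18. They were 0.84 for Rps27, 0.83 for Rpl13, 0.78 for Rpl12 and for Rps7 and 0.69 for Rpl10a. The smallest were 0.65 for Rpl9 and for Rpl37a, 0.63 for Rpl22, 0.62 for Rps14 and 0.53 for Rpl18. Least firm was the call for Rpl10a, kept in 5 of the 16 fits that left out a library. Those for Rpl9, Rpl37a, Rps14 and Rpl18 were each kept in 6 of the 16.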

How the results depend on the processing

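The 8 members called in WT became 15 with the 2 groups fitted alone, 3 with scaling by library totals, 5 without trend and robust moderation, 5 with a replicate block over all groups, 5 with a replicate block within WT alone and 3 to 5 with 1 library left out. The 48 called in KO became 28 with the 2 groups fitted alone and 32 to 58 with 1 library left out. Under isoproterenol, the 59 members higher in KO became 38 with the 2 groups fitted alone and 44 to 61 with 1 library left out. The 35 called differences of responses became 19 to 51 with 1 library left out. The causes were not tested, beyond the fewer libraries of the smaller fits. In WT, 16.3% of all genes were higher and 15.8% lower with the 2 groups fitted alone. Scaling by library totals gave 5.02% and 11.4% there, against 7.6% and 8.98% in the reported fit. The other member counts stand here without the all-gene share of the same fit, as do those with 1 library left out above. They do not separate a change in the members from a change over all genes. Under saline the count was 0 in every alternative run. Scaling by library totals, which shifts the all-gene medians to -0.13 in WT and 0.18 in KO, gave 770 genes higher and 1748 lower in WT, against 1167 and 1379, and 57 members called in KO. The other scalings, voom weights, log2(CPM + 1), the gene and member minimums and the standard proteins alone kept each count within 1.5 times. Same-numbered libraries had correlated deviations (over 0.1) in 4 of 4 pairs within WT and in 10 of 24 over all pairs of groups. Outside WT, pairing was neither shown nor excluded. Same-numbered KO saline and KO isoproterenol libraries correlated at 0.033 to 0.239, and KO libraries were not fitted as pairs on their own. Within WT some libraries of different number correlated as well. The replicate block over all groups gave 46 called members in KO, 0 under saline, 56 under isoproterenol and 32 differences of responses, and that within WT 36 differences of responses, without Rpl10a and Rpl18. For the named members, a value under an alternative was counted if it was called in the reported fit, in the alternative or in both. Of these values, 1248 kept direction and call, 230 lost the call, 41 gained it and 0 reversed. A change of sign without a call in either fit was not counted. A planned count test was not run. Counting error is widest for the members with the fewest reads, such as Rpl13a at a mean of 12.5 CPM.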
